A study of Homo sapiens with 11 samples.

Results

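SPDEF and 7 other transcription factors of luminal and secretory epithelium were followed on 11 arrays of MDA-MB-468 cells, a human breast carcinoma line grown from a pleural effusion and widely used as a model of triple-negative disease. The 8 genes were SPDEF, FOXA1, GATA3, ELF3, ELF5, EHF, GRHL2 and ESR1. They were chosen by gene symbol, taking the probe set annotated to exactly 1 gene, and they are 8 of the 22395 genes that had a probe set of their own. Each had a single such probe set, among them 17018408 for SPDEF, 16723569 for EHF and 16702351 for GATA3. SPDEF was picked for how far it fell on these same arrays, so its levels, changes and SEs are given as a description with no test. The 7 other factors and the gene lists below were chosen with earlier results of these data known. Their p-values and counts of calls take no account of that choice.

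Cells received TNF and apigenin together (3 arrays), TNF alone (3 arrays), apigenin alone (2 arrays) or neither agent (3 control arrays), and RNA was taken after 24 h. TNF, the inflammatory cytokine tumour necrosis factor, was given at 40 ng/ml, and apigenin, a plant flavone, at 40 µM. The labels name no vehicle for the control cells, and they do not say whether arrays of a group came from separate cultures, so p-values measure only the spread between these arrays. RNA was hybridised to an Affymetrix whole-transcript array, and every level below is the authors' log2 probe set value, on which a difference of 1 is a doubling. Array signal is proportional to RNA amount only within a probe set, so levels are compared between groups for 1 gene and not between genes. Where groups of arrays are said not to overlap, the share of all genes that separated likewise was not counted.

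SPDEF, ELF3, ELF5 and EHF belong to the epithelium-specific branch of the ETS family, most of whose members bind a short GGAA core. The core that SPDEF itself prefers was not examined here. SPDEF drives goblet and other secretory differentiation and is tied to the luminal state in breast and prostate. FOXA1 is a pioneer factor that opens chromatin for the estrogen receptor, which ESR1 encodes, and GATA3 maintains mature luminal cells. ELF5 directs alveolar cells of the lactating gland, ELF3 and EHF act in differentiating epithelia, and GRHL2 keeps cell junction genes active.

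The line's identity was checked against markers. EGFR, which is amplified in this line, read 10.5 to 11.1 over the 11 arrays. The epithelial genes EPCAM (8.83 to 9.38) and CDH1 (7.70 to 8.54) were likewise far above the median of all probe set means, 2.53, which served here as a guide to background. The luminal keratin genes KRT18 (4.35 to 5.22) and KRT8 (3.61 to 4.53) were above that guide on all 11 arrays. PGR, the progesterone receptor gene and a target of the estrogen receptor, read 1.40 to 1.66 and was below the guide on every array. The word luminal is used here for what these factors do in mammary epithelium. The class of this line was not decided from these markers, as the luminal keratin genes were above the guide and PGR below it. Of 12 measured markers of other cell types, 8 were below the guide on every array, the leukocyte gene PTPRC and the endothelial gene VWF among them. The macrophage genes CD68 (median 5.34) and CSF1R (median 4.34) and the collagen gene COL1A1 (median 3.32) were above it on all 11 arrays, and the endothelial gene CDH5 on 10. The summed log2 level of the 12 ran from 30.0 to 30.9 in cells with TNF plus apigenin, 30.6 to 30.9 with TNF, 30.2 to 30.6 with apigenin and 30.6 to 31.5 in control cells. Array apigenin 1 stood apart, with a median over tested genes of 3.89 against 4.08 to 4.32 on the other 10. Its spread over these genes was also narrower, with an interquartile range of 2.40 against 2.63 to 2.91. The changes of the factors with apigenin against control are therefore also given without this array, and list calls lost without it are named. Levels come from whole cultures, in which fewer cells of a type and less RNA per cell cannot be told apart.

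Promoter sequences, 250 bases before to 50 after a start site, were taken from RefSeq (build GRCh38.p14), whose table matched 7 of the 8 genes. The SPDEF window is shown because SPDEF is the gene described in most depth. It lies on the minus strand at chr6:34556280-34556579, and capitals mark the 4 ETS cores (GGAA, or TTCC for the other strand), whose leftmost bases are at -41, -22, 23 and 37 from the start.

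SPDEF: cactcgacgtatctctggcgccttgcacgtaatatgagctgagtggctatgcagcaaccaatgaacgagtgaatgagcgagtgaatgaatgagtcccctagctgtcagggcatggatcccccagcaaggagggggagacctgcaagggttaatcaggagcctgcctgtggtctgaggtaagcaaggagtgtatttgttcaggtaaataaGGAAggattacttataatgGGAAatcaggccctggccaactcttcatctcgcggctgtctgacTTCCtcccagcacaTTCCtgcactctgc

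The EHF windows are shown because EHF was called in 2 comparisons below, the most of any member tested, so that the choice followed its values. Both are on the plus strand. The window of start 1, chr11:34624007-34624306, has 2 ETS cores, in capitals.

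EHF start 1: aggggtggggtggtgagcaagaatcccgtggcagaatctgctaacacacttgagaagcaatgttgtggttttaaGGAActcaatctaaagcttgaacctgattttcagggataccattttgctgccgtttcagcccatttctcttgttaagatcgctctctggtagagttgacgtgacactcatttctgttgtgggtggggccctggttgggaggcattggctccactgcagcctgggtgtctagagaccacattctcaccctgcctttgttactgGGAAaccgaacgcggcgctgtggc

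The window of start 2, chr11:34632316-34632615, holds no ETS core. Capitals mark its forkhead core (TGTTTAC), the kind of sequence FOXA1 binds, which begins at -196.

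EHF start 2: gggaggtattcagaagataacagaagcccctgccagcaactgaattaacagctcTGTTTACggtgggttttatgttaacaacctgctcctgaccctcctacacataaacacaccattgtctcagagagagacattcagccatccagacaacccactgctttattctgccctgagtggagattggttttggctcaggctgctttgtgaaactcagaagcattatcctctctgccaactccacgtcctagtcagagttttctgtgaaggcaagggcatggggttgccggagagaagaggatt

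Both strands were searched for 5 motifs. The ETS core is found in 95.45% of all 35116 promoter windows of this length, so its presence at SPDEF and EHF is common. The GATA core (GATA) is found in 49.71% of windows, occurs once at SPDEF and at EHF start 1, and has 2 matches at EHF start 2. The forkhead core is found in 3.42% of windows and, among the 3 printed, only in EHF start 2. The xenobiotic response core (GCGTG), found in 36.54% of windows, and the NF-kB consensus, found in 11.27%, had no match in these 3 windows. Among the other matched factors, the NF-kB consensus had 1 match at ELF3, at -88, and 1 at GATA3 start 1, at -19, the only 1 of the 6 GATA3 windows with a match. The xenobiotic response core had 2 matches at GATA3 start 4 and 2 at ESR1 start 3. The forkhead core had 1 match at ELF5, at -193. Matches are letters in a window and were not tested for binding.

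SPDEF had the widest range of the 8 genes across treatments. It read 4.62, 4.49 and 4.22 in cells with TNF plus apigenin, 5.96, 6.19 and 5.72 with TNF, 5.31 and 4.85 with apigenin, and 7.73, 7.48 and 7.34 in control cells. The groups did not overlap, and their order from high to low was control, TNF, apigenin and TNF plus apigenin. The group means were 4.45 ± 0.20 (SD, n = 3) with TNF plus apigenin, 5.96 ± 0.24 (SD, n = 3) with TNF, 5.08 ± 0.32 (SD, n = 2) with apigenin and 7.52 ± 0.20 (SD, n = 3) in control cells. Even the lowest array remained above the guide to background.

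**Figure D1:**
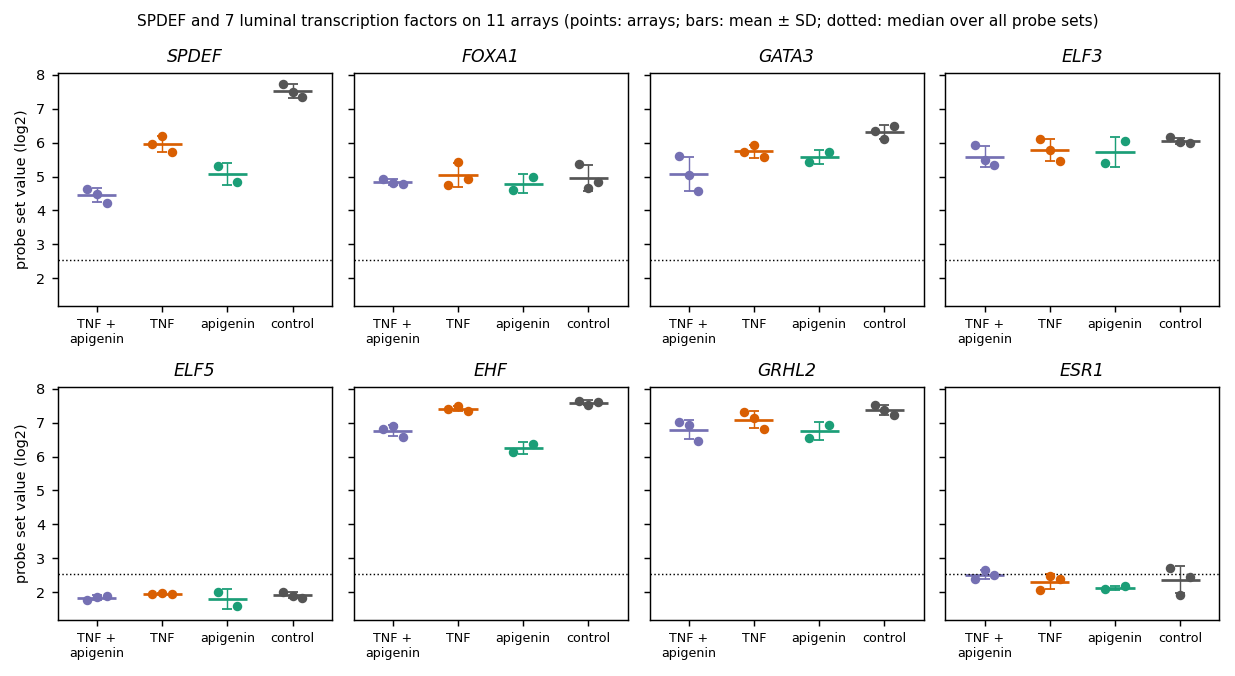
Log2 probe set value (vertical axis) of each of the 8 factors by treatment, with points for arrays, bars for the mean and SD, and a dotted line at 2.53, the median over all probe set means. SPDEF separates the 4 groups, EHF is lowest with apigenin alone, GATA3 is highest in control cells, and ELF5 and most ESR1 points lie under the dotted line.

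Against control cells, SPDEF was 8.42-fold lower with TNF plus apigenin (log2 change -3.07, SE 0.20), 2.96-fold lower with TNF (-1.56, SE 0.20) and 5.44-fold lower with apigenin (-2.44, SE 0.22). Its log2 change was the lowest of 15865 tested genes with apigenin and with both agents, and the 11th lowest with TNF (rank 11). Against TNF alone, TNF plus apigenin was 2.85-fold lower (-1.51, SE 0.20), rank 15 from the lowest. Against apigenin alone, the combination was 1.55-fold lower (-0.63, SE 0.22), rank 160. The 3 comparisons with control share the same 3 control arrays.

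The SPDEF changes can be set beside the sum of the single changes. TNF and apigenin alone sum to a log2 change of -4.01, a 16.1-fold lower level, while the combination gave -3.07. The combined change minus this sum, called the excess here, was 0.93 (SE 0.29). A positive excess on a fall means that the combined fall was smaller than the sum. Relative to the median gene, whose own excess was 0.23, the SPDEF excess was 0.71. Without array apigenin 1 the apigenin change was -2.67, the change of the combination against apigenin was -0.40 and the excess was 1.16. After quantile normalization these were -2.12, -0.94 and 0.60.

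**Figure D2:**
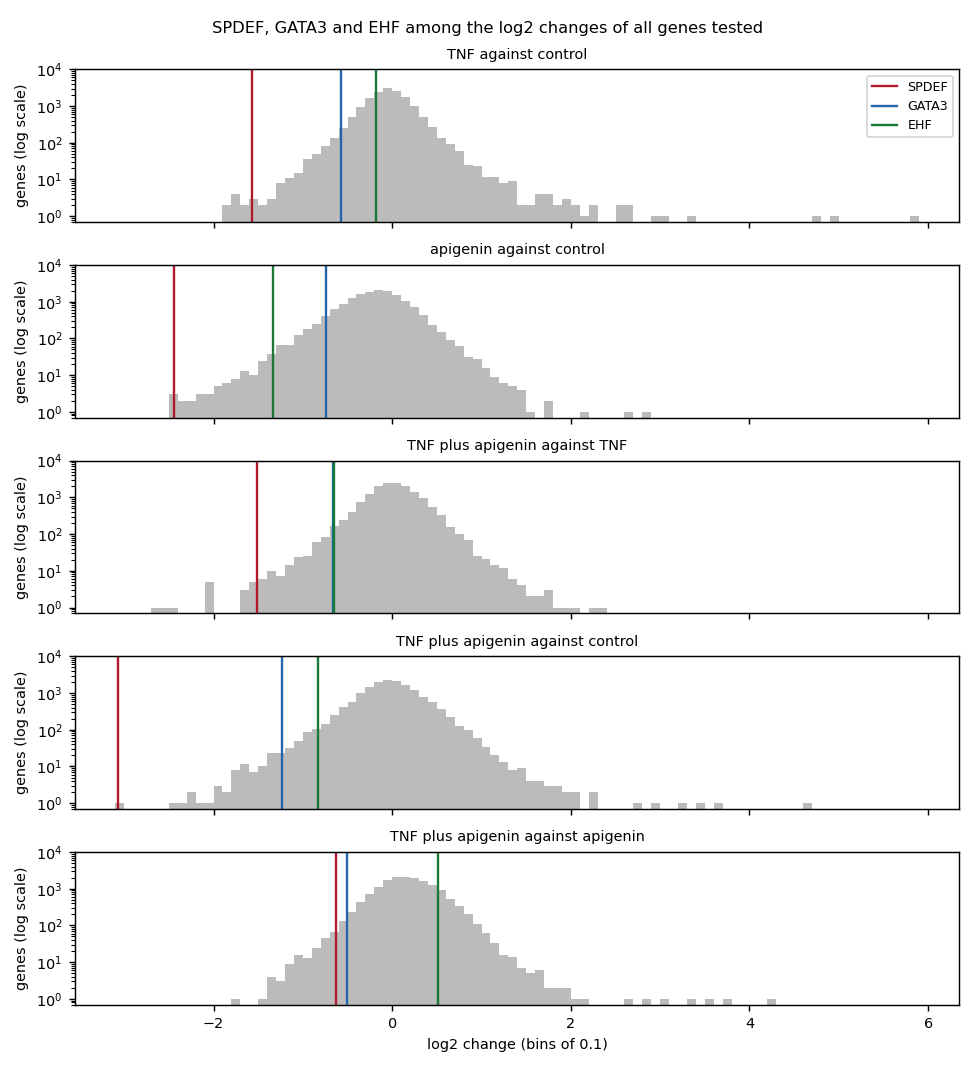
Number of tested genes (vertical log axis) by log2 change in bins of 0.1 (horizontal axis) for 5 comparisons, with lines at SPDEF, GATA3 and EHF. SPDEF lies at the low edge of the distribution with apigenin (-2.44) and with TNF plus apigenin against control (-3.07), and within its lower tail in the other comparisons.

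EHF, the ETS factor of glandular and squamous epithelium, was lower with apigenin and with the combination than in control cells. It read 6.81, 6.89 and 6.58 with TNF plus apigenin, 7.41, 7.49 and 7.33 with TNF, 6.13 and 6.38 with apigenin, and 7.64, 7.51 and 7.62 in control cells. The apigenin arrays lay below all others, and the arrays with both agents lay between those with apigenin alone and those with TNF alone, so EHF and SPDEF put apigenin and the combination in opposite order. EHF fell by 1.33 (log2, SE 0.18) with apigenin against control, 2.52-fold lower at a limma adjusted p of 0.00146. Without array apigenin 1 the log2 change was -1.21 at a limma adjusted p of 0.0308, with the lone remaining array assumed to vary like the other groups. With TNF plus apigenin EHF fell by 0.83 (log2, SE 0.16) against control, 1.77-fold lower at a limma adjusted p of 0.0113. That call was lost without array control 1 (limma adjusted p = 0.0581) and without array TNF plus apigenin 3 (0.0507). With TNF alone the EHF log2 change was -0.18 (SE 0.16, limma adjusted p = 0.913).

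EHF did not pass the test in the comparisons between treated groups. TNF plus apigenin against TNF gave a log2 change of -0.65 (limma adjusted p = 0.0755), which passed after quantile normalization (0.0104), after a median shift of each array (0.0482) and with array weights (0.0339). TNF plus apigenin against apigenin gave 0.51 (limma adjusted p = 0.203). The excess of the combination over the sum of the single changes was 0.69 (SE 0.24), at an unadjusted limma p of 0.0126 and an adjusted p of 0.540. The combined fall was smaller than the sum, at -0.83 beside -1.51.

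GATA3, the zinc-finger factor of mature luminal cells, was lower with the combination. It read 5.61, 5.04 and 4.58 with TNF plus apigenin, 5.72, 5.94 and 5.57 with TNF, 5.44 and 5.72 with apigenin, and 6.33, 6.11 and 6.50 in control cells. All 3 control arrays were above every treated array, and the 3 treated groups overlapped one another. With TNF plus apigenin GATA3 fell by 1.24 (log2, SE 0.23) against control, 2.36-fold lower at a limma adjusted p of 0.00891, and it passed in all 18 alternative settings tried. The log2 changes with TNF (-0.57, limma adjusted p = 0.535) and with apigenin (-0.74, 0.127) did not pass. Without array apigenin 1 the apigenin change was -0.60 (limma adjusted p = 0.522), and after quantile normalization it was -0.42. These changes sum to -1.31, beside -1.24 with the combination. GATA3 spread more with TNF plus apigenin (SD 0.51, n = 3) than in control cells (SD 0.19, n = 3).

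GRHL2, the grainyhead factor of epithelial junctions, passed in no comparison. It read 7.01, 6.92 and 6.47 with TNF plus apigenin, 7.31, 7.13 and 6.83 with TNF, 6.56 and 6.93 with apigenin, and 7.53, 7.38 and 7.22 in control cells. All treated groups overlapped, and only the TNF arrays overlapped the control arrays. Its log2 changes against control were -0.58 with TNF plus apigenin (limma adjusted p = 0.147), -0.29 with TNF (0.862) and -0.64 with apigenin (0.127). Without array apigenin 1 the apigenin change was -0.45 (limma adjusted p = 0.573), and after quantile normalization -0.31. The change with both agents passed after quantile normalization, at a limma adjusted p of 0.0250.

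ELF3, the epithelial ETS factor, read 5.94, 5.48 and 5.34 with TNF plus apigenin, 6.12, 5.77 and 5.47 with TNF, 5.41 and 6.04 with apigenin, and 6.16, 6.01 and 5.99 in control cells. Its log2 changes against control were -0.46 with TNF plus apigenin (limma adjusted p = 0.324), -0.26 with TNF (0.905) and -0.33 with apigenin (0.500). The apigenin change depended on which apigenin array was kept: it was -0.01 without array apigenin 1, -0.64 without array apigenin 2 and -0.01 after quantile normalization. No ELF3 comparison passed. FOXA1, the pioneer factor, read 4.93, 4.81 and 4.77 with TNF plus apigenin, 4.76, 5.44 and 4.92 with TNF, 4.59 and 4.98 with apigenin, and 5.37, 4.65 and 4.85 in control cells. All FOXA1 groups overlapped, and its 5 log2 changes between groups ran from -0.20 to 0.08 with limma adjusted p-values of 0.754 to 0.984. The FOXA1 apigenin change, -0.17, was 0.03 without array apigenin 1 and 0.11 after quantile normalization.

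The estrogen receptor gene ESR1 lay near background. It read 2.39, 2.65 and 2.52 with TNF plus apigenin, 2.07, 2.49 and 2.38 with TNF, 2.09 and 2.17 with apigenin, and 2.72, 1.93 and 2.46 in control cells. Only 2 of 11 arrays, control 1 and TNF plus apigenin 2, reached the guide of 2.53, and no ESR1 comparison passed. Its log2 change with apigenin was -0.24, and -0.20 without array apigenin 1. ELF5, the alveolar ETS factor, ran from 1.59 to 2.01 and was below the guide on every array. It did not pass the filter on dim probe sets, so 7 of the 8 factors were fitted.

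**Figure D3:**
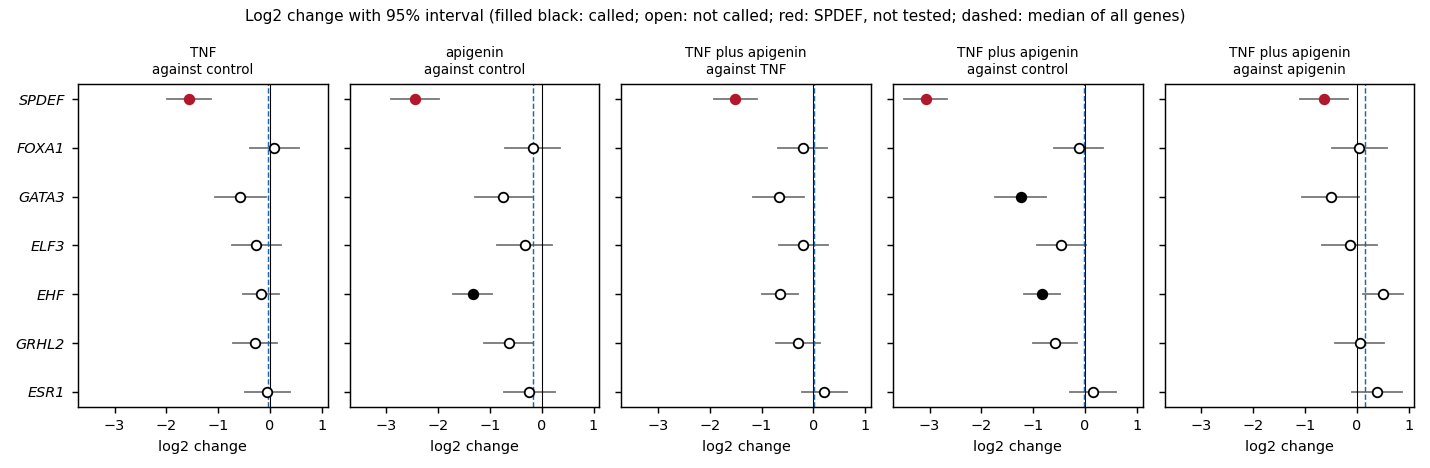
Log2 change (horizontal axis) with its 95% interval for the 7 fitted factors in 5 comparisons, filled black where the limma adjusted p passed, open where it did not, and red for SPDEF, which was not tested. The SPDEF interval shows only the spread between arrays and takes no account of its choice for its fall on them. The dashed line is the median of all genes, and the filled points are EHF with apigenin, and EHF and GATA3 with TNF plus apigenin against control.

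Among the 6 factors tested besides SPDEF, none passed for TNF against control, 1 (EHF) for apigenin against control, none for TNF plus apigenin against TNF, 2 (EHF and GATA3) for TNF plus apigenin against control, and none for TNF plus apigenin against apigenin or for the excess. Over all 15865 genes the limma fit called 0.700%, 3.66%, 1.07%, 2.82%, 0.574% and 0.0252% in the same 6 contrasts. At an unadjusted limma p under 0.05 the counts were 1, 3, 2, 3, 1 and 1 of 6. The counts over all 15865 genes at that threshold were 1176, 3097, 1766, 2529, 2497 and 1294. Genes called higher made up 0.473% with TNF, 0.221% with apigenin, 0.384% with the combination against TNF, 1.04% with the combination against control and 0.529% with the combination against apigenin. Genes called lower made up 0.227%, 3.44%, 0.681%, 1.78% and 0.0441% in the same 5 comparisons. With apigenin, 94.0% of called genes were lower, against 69.6% after quantile normalization.

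The median log2 change of the 6 was -0.22 with TNF, beside -0.04 over all genes. It was -0.48 with apigenin, beside -0.18, and -0.52 with TNF plus apigenin against control, beside -0.02. Against TNF the combination gave a median of -0.25, beside 0.02, and against apigenin 0.05, beside 0.16. With apigenin, the EHF log2 change relative to the median gene was -1.16. After quantile normalization, which moved that median to 0.00, the EHF change was -1.02. A median shift of each array left the median over all genes at -0.18.

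Genes whose levels followed SPDEF most closely were found by Pearson's r over the 11 arrays, which share 4 treatments. The median r over 15864 genes was 0.11, 69 genes were above 0.9 and 3 were under -0.9. The nearest was TJP3, a tight junction protein gene (r = 0.972), followed by S100A14, a calcium-binding protein gene (0.961), VTCN1, an inhibitory ligand of T cells (0.961), IRX3, a homeobox factor (0.960), PLAAT3, a phospholipase (0.960), ANO1, a calcium-activated chloride channel (0.959), GRAMD2A, a membrane contact protein (0.956), and GLUL, glutamine synthetase (0.956). After group means were removed, r was 0.812 for IRX3, 0.634 for PLAAT3, 0.618 for ANO1 and 0.528 for GRAMD2A. It was 0.465 for S100A14, 0.460 for TJP3, 0.369 for VTCN1 and 0.143 for GLUL. The likeness of GLUL thus lay mostly between groups, and that of IRX3 was also seen within them. Of these 8 genes, 3 were also among the nearest 8 after quantile normalization, and 3 without array apigenin 1.

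VTCN1, itself picked for its r with SPDEF over these groups, shared the order of groups seen for SPDEF. It read 7.01, 6.83 and 6.27 with TNF plus apigenin, 7.95, 8.22 and 8.02 with TNF, 7.45 and 7.74 with apigenin, and 9.06, 8.90 and 9.05 in control cells. IRX3 read 5.49, 5.23 and 5.01 with TNF plus apigenin, 5.73, 5.73 and 5.44 with TNF, 5.31 and 5.13 with apigenin, and 6.50, 6.56 and 6.32 in control cells. Unlike SPDEF, IRX3 overlapped between apigenin and the combination. The most opposite genes were STC2, a secreted glycoprotein induced by cell stress (r = -0.931), HSPA13, a chaperone of the Hsp70 family (-0.916), DGKE, a diacylglycerol kinase (-0.912), and C2orf48 (-0.892). HSPA13 read 8.66, 9.01 and 8.60 with TNF plus apigenin, 8.16, 8.15 and 8.06 with TNF, 8.03 and 8.39 with apigenin, and 7.62, 7.57 and 7.73 in control cells. Among the other factors, r with SPDEF was 0.878 for GATA3 (rank 122), 0.799 for GRHL2 (354), 0.786 for EHF (415), 0.601 for ELF3, 0.285 for FOXA1 and -0.07 for ESR1.

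**Figure D4:**
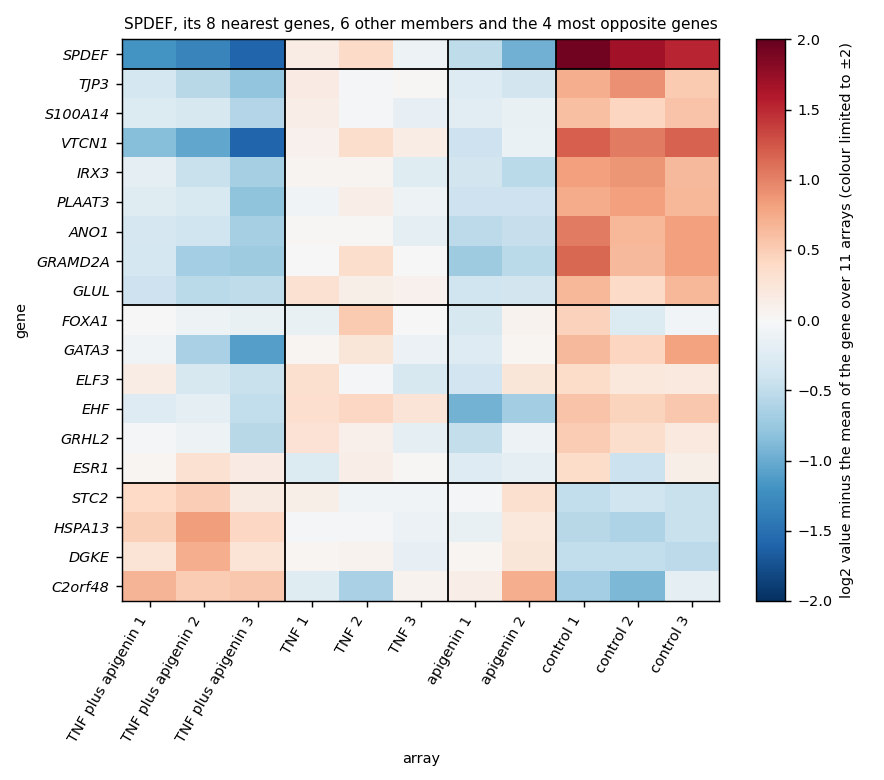
Log2 value minus the gene's mean over 11 arrays (colour, limited to ±2) for SPDEF, the 8 genes with the highest r, 6 other factors and the 4 with the lowest r (rows) on each array (columns). The rows from TJP3 to GLUL are red on the control arrays as SPDEF is, and STC2, HSPA13, DGKE and C2orf48 are blue there.

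Secretory and goblet genes linked to SPDEF formed a list of 20, of which 15 were tested. With TNF, 2 were called lower and none higher; with apigenin 3 lower and none higher; with the combination against control 2 lower and none higher. SCGB2A2, the gene of the secreted protein mammaglobin, read 4.18, 3.87 and 4.11 with TNF plus apigenin, 3.61, 3.65 and 3.18 with TNF, 3.98 and 3.61 with apigenin, and 5.30, 4.64 and 5.32 in control cells. Every treated array lay below the control arrays, and SCGB2A2 was lowest with TNF, unlike SPDEF. SCGB2A2 fell in all 3, with log2 changes of -1.03 with the combination (SE 0.22, limma adjusted p = 0.0171), -1.61 with TNF (SE 0.22, 0.00108) and -1.29 with apigenin (SE 0.24, 0.00996). The apigenin call was lost without array apigenin 1 (limma adjusted p = 0.0504) or control 1 (0.0523). The call for the combination was lost without control 1 or 3 or TNF plus apigenin 2 or 3 (limma adjusted p = 0.0526 to 0.0945). CREB3L4, a bZIP factor of the secretory pathway, also fell in all 3, with log2 changes of -0.94 with the combination (limma adjusted p = 0.0104), -0.87 with TNF (0.0412) and -1.18 with apigenin (0.00612). Its call for the combination was lost without control 1 or TNF plus apigenin 2 (limma adjusted p = 0.0557 and 0.0656) and that for apigenin without apigenin 1 (0.0713). Its TNF call held only without TNF 1, apigenin 1 or apigenin 2, among the 11 single-array omissions, and was otherwise lost at limma adjusted p-values of 0.0517 to 0.206. The other apigenin call, AGR2, a disulfide isomerase of mucus cells, had a log2 change of -0.78 against a level under the guide (1.95 with apigenin, 2.74 in control cells), and was lost with array weights and in 9 of the 11 (limma adjusted p up to 0.210), all but those without control 2 and TNF plus apigenin 3. The list's median log2 change was -0.10 with TNF, -0.22 with apigenin and -0.13 with the combination, beside -0.04, -0.18 and -0.02 over all genes. In the same comparisons 0.227%, 3.44% and 1.78% of all genes were called lower.

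Hormone receptor and luminal genes gave a list of 28 with 19 tested. With apigenin 3 were called lower, with the combination against TNF 1 lower, and with the combination against control 2 lower and 1 higher. No other comparison had a call. Over all genes, 3.44%, 0.681% and 1.78% were called lower in these 3 comparisons, and 1.04% higher in the last. The list's median log2 changes there were -0.24, -0.15 and -0.27, beside -0.18, 0.02 and -0.02 over all genes. MUC1, the luminal mucin gene, read 6.55, 6.06 and 5.67 with TNF plus apigenin, 8.05, 7.85 and 7.31 with TNF, 5.73 and 5.98 with apigenin, and 7.99, 7.75 and 7.67 in control cells. The arrays with apigenin, alone or with TNF, were all below the others, and TNF arrays overlapped control arrays. MUC1 fell in 3 comparisons, with log2 changes of -1.71 with the combination against control (SE 0.24, limma adjusted p = 0.00106), -1.64 with the combination against TNF (SE 0.24, 0.00312) and -1.95 with apigenin (SE 0.26, 0.00146), and no fit that left out an array lost these calls. MYB, a factor of luminal cells, fell by 1.42 with apigenin (log2, limma adjusted p = 0.00311), a call lost without array apigenin 1 (0.0552). KRT19, a luminal keratin gene, fell by 0.82 with the combination (log2, limma adjusted p = 0.0133) and STC2 rose by 0.80 (0.0171). Both calls were lost without control 1, control 3 or TNF plus apigenin 2, that of KRT19 also without TNF plus apigenin 3 and that of STC2 without TNF plus apigenin 1 (limma adjusted p up to 0.0717 and 0.0933). The remaining apigenin call was AGR2, which both lists hold.

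Luminal progenitor and alveolar genes linked to ELF5 numbered 20, with 15 tested. There, 1 was called lower with TNF, 2 with apigenin, 1 with the combination against TNF and 2 with the combination against control, and none was called higher. Over all genes, 0.227%, 3.44%, 0.681% and 1.78% were called lower in these comparisons. The list's median log2 changes there were -0.23, -0.48, -0.14 and -0.22, beside -0.04, -0.18, 0.02 and -0.02 over all genes. CD14, a receptor for bacterial lipid, read 4.91, 4.45 and 4.15 with TNF plus apigenin, 5.35, 5.35 and 5.05 with TNF, 4.47 and 4.34 with apigenin, and 6.30, 6.72 and 6.40 in control cells. All treated arrays were below the control arrays. CD14 fell in all 3 groups against control, with log2 changes of -1.97 with the combination (limma adjusted p = 0.000119), -1.22 with TNF (0.00829) and -2.06 with apigenin (0.000354). The TNF call was lost without control 2 or TNF 3 (limma adjusted p = 0.0523 to 0.0564). KIT, a receptor tyrosine kinase of luminal progenitors, fell by 1.53 with the combination against control (log2, limma adjusted p = 0.000522). KIT also fell by 1.25 with apigenin (log2, limma adjusted p = 0.00637, and 0.0944 without array apigenin 1). With the combination against TNF it fell by 0.96 (log2, limma adjusted p = 0.0239), a call lost without TNF 1, TNF 2 or any array with both agents (0.0636 to 0.129).

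**Figure D5:**
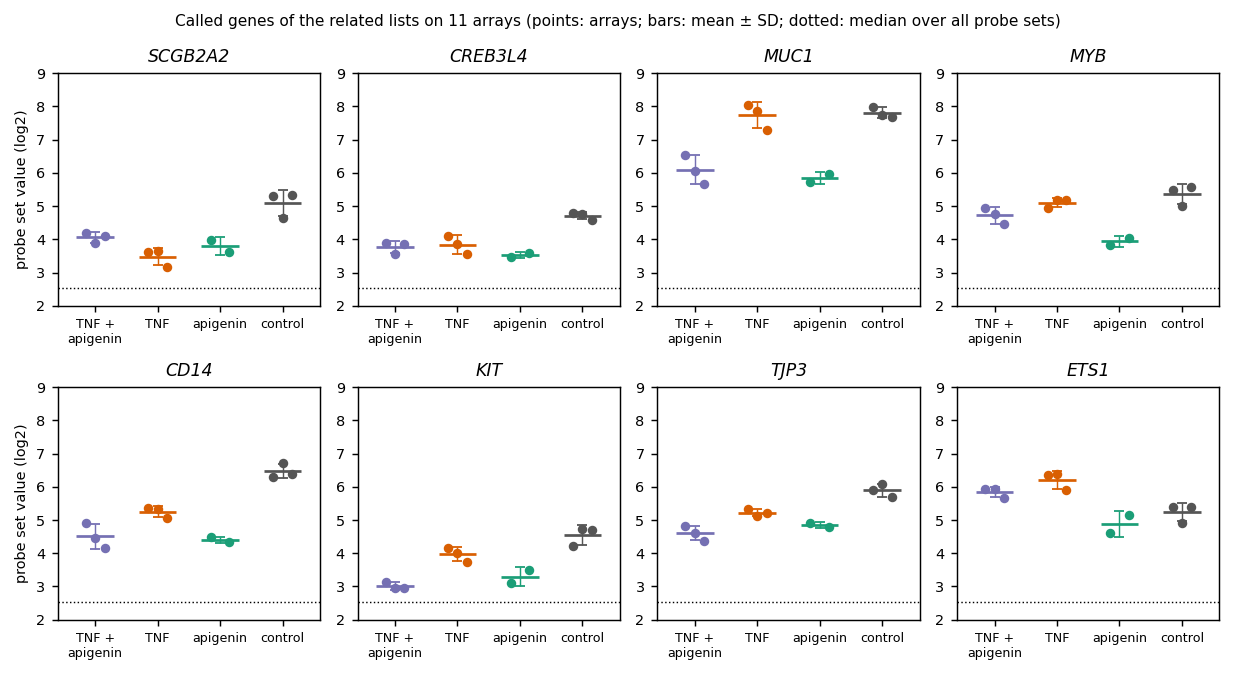
Log2 probe set value (vertical axis) by treatment of 8 genes from the related lists, with points for arrays, bars for the mean and SD, and a dotted line at 2.53. MUC1 is low in both groups that received apigenin, SCGB2A2, CREB3L4, CD14, KIT and TJP3 are highest in control cells, and ETS1 is highest with TNF.

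Other ETS family factors numbered 24, with 21 tested. Of all genes, 0.473% were called higher with TNF and 3.44% lower with apigenin. With the combination, 1.78% were called lower against control and 0.384% higher against TNF. ETS1, an ETS factor of migrating and endothelial cells, rose by 0.97 with TNF (log2, limma adjusted p = 0.0477), and ETS2 fell by 0.87 with apigenin (0.0367). The ETS1 call was lost without the filter on dim probe sets and in all fits that left out an array but those without TNF 3, apigenin 1 or apigenin 2 (limma adjusted p up to 0.222). The ETS2 call was lost after quantile normalization, with array weights and without control 1, control 3, TNF 3, apigenin 1 or TNF plus apigenin 2 (limma adjusted p up to 0.268). No other ETS gene of the list was called. Epithelial genes linked to GRHL2 numbered 20, with 19 tested: TJP3 fell by 1.29 with the combination (log2, limma adjusted p = 0.000941) and by 1.04 with apigenin (0.0102). The apigenin call was lost after quantile normalization, with array weights and without array apigenin 1 (limma adjusted p = 0.0708). OVOL2, a repressor of mesenchymal genes, rose by 0.84 with the combination against TNF (log2, limma adjusted p = 0.0299), a call lost with the mean over probe sets and without control 3, TNF 1, TNF 2 or any array with both agents (0.0530 to 0.166). None of the 17 tested relatives and cofactors of FOXA1, GATA3, GRHL2 and ESR1 was called in any comparison. Their median log2 change with apigenin was -0.43, beside -0.18 over all genes.

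Of 12 basal and mesenchymal genes tested, FN1, the fibronectin gene, was called lower, beside 1.78%, 0.681% and 3.44% of all genes in the comparisons that follow. Its log2 changes were -1.14 with the combination against control (limma adjusted p = 0.00986), -1.08 with the combination against TNF (0.0235) and -1.68 with apigenin against control (0.00224). The first call was lost without TNF plus apigenin 3 (limma adjusted p = 0.0526), and that against TNF without TNF 1, TNF 2 or any array with both agents (0.0506 to 0.130). Among markers of other cell types, the endothelial cadherin gene CDH5 read 3.19, 3.32 and 2.89 with TNF plus apigenin, 4.13, 4.64 and 4.38 with TNF, 2.69 and 2.18 with apigenin, and 3.47, 3.47 and 3.46 in control cells. Of the 12 such markers measured, 4 were tested, and only CDH5 was called. The endothelial gene VWF was below the guide on every array. CDH5 rose by 0.92 with TNF (log2, limma adjusted p = 0.0448), where 0.473% of all genes were called higher. That call was lost without the filter on dim probe sets and in all fits that left out an array but those without TNF 1, apigenin 1, apigenin 2 or TNF plus apigenin 3 (limma adjusted p up to 0.225). CDH5 fell by 1.25 with the combination against TNF (log2, limma adjusted p = 0.00451) and by 1.03 with apigenin (0.0178). In these comparisons 0.681% and 3.44% of all genes were called lower. The CDH5 mean with apigenin, 2.43, was under the guide, so the size of its fall with apigenin is uncertain. That call was lost with array weights and without control 1, control 3 or apigenin 2. No gene of these lists was called for TNF plus apigenin against apigenin or for the excess.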

How the data were processed

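Values were the authors' deposited log2 probe set values of 11 GeneChip Human Gene 2.1 ST arrays, per the labels. The Affymetrix Expression Console made them, per the submitters' processing notes; neither names a summary method or a genome build. Of 53617 probe sets, 23871 carried 1 gene symbol, 1842 several and 27904 none. The probe set with the highest mean stood for each of 22395 genes, 15865 of which reached 2.53, the median probe set mean, on at least 2 arrays and were fitted with limma 3.58.1 in R 4.3.3 (4 group means, lmFit and eBayes, 2-sided). P-values were Benjamini-Hochberg adjusted over all genes tested, and called means an adjusted p under 0.05. The fits were tested on simulated data.

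The 8 factors and the gene lists were chosen with earlier results of these data known. Genes named were these factors, the 8 highest and 4 lowest correlations with SPDEF, up to 4 called genes by size per list and comparison, and the line markers. No arrays held identical values. The labels state no pairing of replicate numbers, so the numbers were not taken to pair the samples. Same-numbered arrays correlated from -0.24 to 0.28 after group means were removed, 4 of 15 pairs above 0.1. For 6 of 11 arrays the best match had their own number, so these correlations do not settle whether samples were paired. Alternatives were quantile normalization, a median shift, other filters, the mean over probe sets, array weights, a replicate block and leaving out each array. Protein sequences were not used here.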

Additional observations from a re-analysis of the deposited data

Results flagged for a closer look

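The difference that TNF made to EHF had opposite signs with and without apigenin, though neither difference passed its own test (limma adjusted p = 0.203 and 0.913). The median gene also had opposite signs, at 0.16 and -0.04. In the presence of apigenin TNF gave a log2 difference of 0.51 (TNF plus apigenin minus apigenin), and in its absence -0.18 (TNF minus control), so that the 2 effects differed by 0.686 (SE 0.24). The 3 arrays with both agents read above the 2 with apigenin alone, and the 3 TNF arrays read below the 3 control arrays. The share of all genes that separated in this way was not counted. Among tested genes the EHF change lay at percentile 86.3 with apigenin present and 26.4 without it. The limma test of the difference gave an unadjusted p of 0.0126 and an adjusted p of 0.540, so it did not pass over all genes. Relative to the median gene the difference between the 2 effects was 0.46, and over 18 alternative settings it ran from 0.37 to 0.81. The effect in the presence of apigenin ran from 0.21 to 0.64 over those settings. The low ends of these ranges, 0.37 and 0.21, were the values after quantile normalization. Without array apigenin 1, whose values stood apart, the difference between the 2 effects was 0.56.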

How the results depend on the processing

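No log2 change of a factor or called list gene that had passed changed sign under any of the 18 alternatives: 7 changes of processing and 11 fits that each left out an array. ESR1 and AGR2 were not fitted under the stricter filter. EHF with apigenin and GATA3 with the combination against control passed in 18 of 18, with limma adjusted p-values of 0.000576 to 0.0308 and 0.00158 to 0.0460. EHF with the combination against control passed in 16 of 18. For TNF plus apigenin against TNF, 1 factor in place of 0 passed after quantile normalization, after a median shift and with array weights. Genes called with TNF (111) became 186 after quantile normalization and 221 with array weights, and with apigenin (581) 207 with array weights. For the combination against TNF (169) they became 508 after quantile normalization and 391 with weights, and against control (447) 1277 and 1197. For the combination against apigenin (91) they became 180 after a median shift, 166 under the stricter filter and 32 with weights. For the excess (4) they became 7 after quantile normalization, 10 under the stricter filter and 0 with the replicate block. In the replicate block no call among the factors changed, and those of AGR2 with apigenin and of CREB3L4, ETS1 and CDH5 with TNF were lost; 6 of 11 arrays correlated best with an array of their own number.

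Leaving out an array gave 60 (without TNF 2) to 128 genes called with TNF, 84 (without apigenin 1) to 1290 (without apigenin 2) with apigenin, 85 to 197 for the combination against TNF, 206 to 538 against control, 18 (without apigenin 1) to 598 (without apigenin 2) against apigenin, and 0 to 7 for the excess. Counts moved by over 1.5 times without any control or TNF array for TNF (60 to 69), without control 1 or 3 or either apigenin array for apigenin, without TNF 1, TNF 2 or any array with both agents for the combination against TNF (85 to 107), and without control 1 or 3 or TNF plus apigenin 2 or 3 for it against control (206 to 270). Against apigenin they moved without control 1 or 3, TNF 3, either apigenin array or any array with both agents (18 to 60, 153 and 598). Of the 6 factors, 0 to 0, 1 to 1, 0 to 0, 1 to 2, 0 to 0 and 0 to 0 passed. Leaving out an apigenin array left 1, assumed to vary like the other groups. After quantile normalization the lower share of calls was 52.5% in place of 63.1% for the combination against control and 21.8% in place of 7.69% against apigenin. The cause was not tested. The 2 or 3 arrays in a group limit precision, and values near 2.53 are close to background.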
